A study of Mus musculus with 6 samples.

Results

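The phase II conjugation enzymes described here are the genes of the soluble glutathione transferase (*Gst*), UDP-glucuronosyltransferase (*Ugt*) and sulfotransferase (*Sult*) families. They were chosen by symbol alone: a class letter and a number after *Gst*, or a number after *Ugt* or *Sult*. This gave 55 of the 20856 genes with values, namely 21 *Gst*, 18 *Ugt* and 16 *Sult* genes. Their RNA was measured in 6 cell lines grown from mouse liver tumors, 3 of the genotype *Myc*; sg*Trp53* (Myc;sgp53/Cas9 in the labels) and 3 of the genotype *Myc*; sg*Kmt2c* (Myc;sgMll3/Cas9). All tumors arose in C57BL/6 mice after hydrodynamic transfection of the liver with a *Myc* transposon and a px330 plasmid that carries Cas9 and a guide RNA against *Trp53*, the gene for p53, or against *Kmt2c*, the gene for the histone methyltransferase MLL3. Lines with the *Kmt2c* guide hold heterozygous or homozygous indels. Every line therefore carries the *Myc* transgene, none was made with both targeted genes left intact, and the mutant lines of each genotype were compared only with those of the other. The tumor cells had been grown in DMEM with 10% FBS on collagen-coated dishes and passaged until no fibroblasts were seen, without further treatment. The animals injected were young adult females, and replicates 2 and 3 of sg*Kmt2c* carry related line names (2A and 2T1). The paper describes the 3 lines of each genotype as independent and as taken from different mice.

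Phase II enzymes attach a polar group to drugs, bile pigments, hormones and lipid peroxidation products, which are then exported from the cell. Glutathione transferases add glutathione, UDP-glucuronosyltransferases of the *Ugt1* and *Ugt2* clusters add glucuronic acid taken from UDP-glucuronic acid, and sulfotransferases add sulfate taken from PAPS. In the liver the hepatocyte is the main site of all 3 reactions, and the *Gsta*, *Ugt2b* and *Sult2a* genes are among its typical products.

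Between 3680068 and 6878625 reads were assigned to genes in each library, so that 1 read on a transcript of 2 kb was worth 0.0726 to 0.136 RPKM (reads per kilobase of transcript, scaled to the total of reads on genes, the unit of every level here). Where values of 2 triplets are set against each other, the sg*Trp53* lines come first, and each triplet is in the order of replicates 1, 2 and 3. *Trp53* RNA was 17.2, 17.6 and 19.4 RPKM in sg*Trp53* cells and 92.2, 124 and 121 RPKM in sg*Kmt2c* cells. *Kmt2c* RNA was 24.2, 18.4 and 19.2 RPKM against 19.7, 25.0 and 9.51 RPKM, so its level did not separate the genotypes. Hepatocyte markers were low in every line. *Cyp2e1* did not exceed 0.206 RPKM in any library, *Alb* lay between 0.644 and 4.36 RPKM, and the sum of 6 hepatocyte markers was 4.76, 1.34 and 2.95 RPKM in sg*Trp53* replicates 1 to 3 and 22.9, 1.28 and 2.67 RPKM in sg*Kmt2c* replicates 1 to 3. The sum of 6 biliary and progenitor markers was 921, 91.2 and 1009 RPKM against 3487, 91.7 and 428 RPKM, with *Krt19* at 1866 RPKM in sg*Kmt2c* replicate 1 and at 7.06 to 223 RPKM in the others. *Krt7* (990 RPKM), *Epcam* and *Afp* were also highest in sg*Kmt2c* replicate 1. *Sox9* (6.36 RPKM there, up to 11.9 RPKM elsewhere) and *Spp1* (578 RPKM there, up to 682 RPKM elsewhere) were not. The sum of 8 fibroblast and stellate markers was 11.9, 172 and 143 RPKM against 0.215, 34.9 and 17.0 RPKM (*Lrat* at 0 in all). The sum of 6 macrophage and leukocyte markers was 46.8, 21.7 and 58.2 RPKM against 6.28, 5.51 and 15.2 RPKM (*Clec4f* at 0 in all), and that of 4 endothelial markers did not exceed 0.302 RPKM. The part of these differences between lines in the values below was not tested, and in bulk samples fewer cells of a type and less RNA per cell cannot be told apart.

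Glutathione transferases made up most of the phase II RNA, and 1 line stood apart from the rest. The 55 genes summed to 737, 618 and 740 RPKM in sg*Trp53* replicates 1, 2 and 3 and to 2777, 828 and 600 RPKM in sg*Kmt2c* replicates 1, 2 and 3. *Gst* genes contributed 568 to 808 RPKM in 5 lines and 2347 RPKM in sg*Kmt2c* replicate 1. *Ugt* genes contributed 9.79 to 26.3 RPKM in those 5 lines and 361 RPKM in sg*Kmt2c* replicate 1. *Sult* genes gave 37.7, 1.00 and 4.33 RPKM in sg*Trp53* cells against 69.9, 0.720 and 4.91 RPKM. The line with the large sums was chosen for separate description after its values had been seen.

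**Figure D1:**
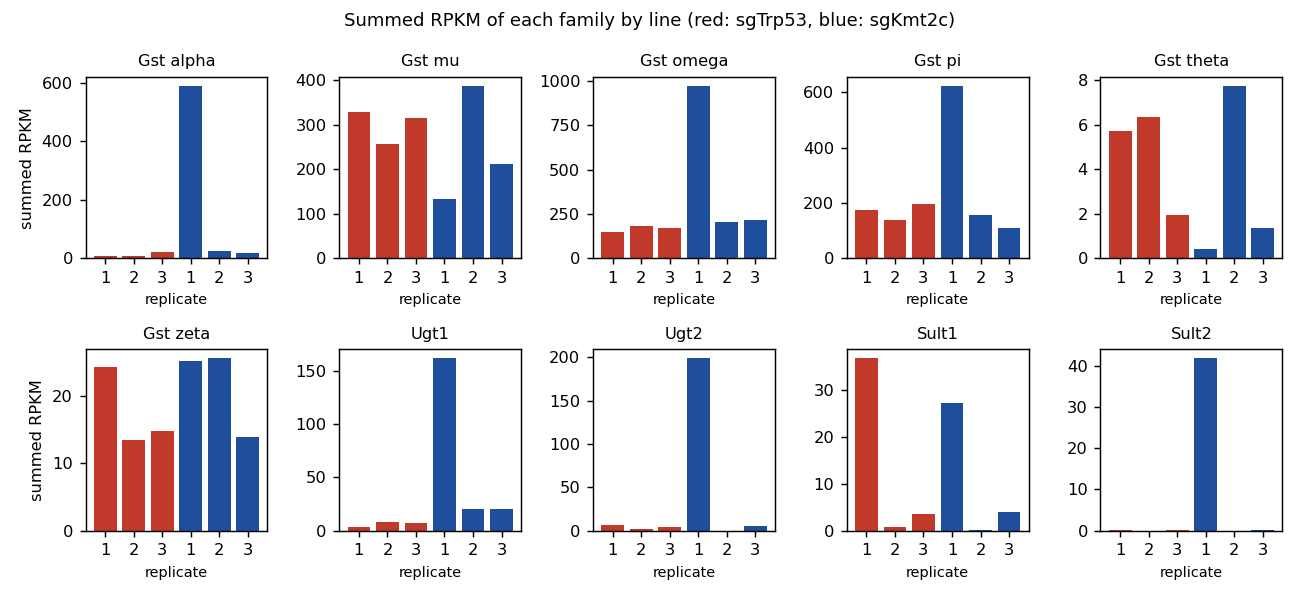
Summed RPKM (linear vertical axes from 0, a separate scale for each panel) of 10 families in each of the 6 lines, with replicates 1 to 3 of sgTrp53 in red and of sgKmt2c in blue. sgKmt2c replicate 1 is far above the other 5 lines in the Gst alpha (591), Gst omega (973), Gst pi (623), Ugt1 (162), Ugt2 (199) and Sult2 (41.8) panels and is the lowest in the Gst mu (134) and Gst theta (0.409) panels.

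To ask whether the genotypes differed, the 16 members that reached 1 RPKM in 3 or more libraries were tested together with all other such genes (11617 in all). These were 12 *Gst* genes, 3 *Ugt* genes and 1 *Sult* gene, and the other 39 members were too low. No member was called at an adjusted p-value under 0.05 (limma with Benjamini-Hochberg adjustment), while 15 genes were over the whole table, which is 0.129% of those tested (0.0516% higher and 0.0775% lower in sg*Kmt2c* cells). At an unadjusted p-value under 0.05 (limma) there were 3 members of 16, *Ugt1a6a* higher and *Gstm4* and *Gstm5* lower in the sg*Kmt2c* lines, beside 8.58% of all genes tested (3.25% higher and 5.34% lower). *Gstm4* reached 1 RPKM in all sg*Trp53* lines and in no sg*Kmt2c* line, so it entered the test through the genotype where it was high and its difference is given as a description only, which leaves 2 of the other 15 members. For 4 of 16 members the genotypes did not overlap, *Gsta1*, *Gsto1* and *Ugt1a6a* with all sg*Kmt2c* lines above and *Gstm4*, as the filter fixed for it, with all below, beside 16.2% of all genes (5.72% above and 10.4% below). The median log2 fold change, given throughout as sg*Kmt2c* minus sg*Trp53* on the log2(RPKM + 1) scale, was 0.34 for the 16 members and -0.09 for all genes tested. Without sg*Kmt2c* replicate 1 the members' median was -0.10, and 8 of 16 were above 0 in place of 10. In that fit again no member was called, beside 0.0689% of all genes, and 3 (*Gstp2*, *Ugt1a6a* and again *Gstm4*) had an unadjusted p-value under 0.05, beside 9.25% (limma).

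sg*Kmt2c* replicate 1 held the highest value of more members than any other line. It was the highest of the 6 lines for 8 of 16 tested members, beside 23.6% of all genes tested, and for 19 of the 44 members with a read in any library, beside 21.1% of all 19183 genes with a read. In all 8 the level was more than 3 times that of the next line, which held for 2.43% of all genes tested (this multiple was also chosen after the values had been seen). The ratios to the highest of the other 5 lines were 42.9 for *Gsta1*, 30.8 for *Ugt2b34*, 14.4 for *Gsta4* and 13.3 for *Ugt1a7c*. They were 5.65 for *Gsto2*, 4.52 for *Gsto1*, 3.17 for *Gstp1* and 3.05 for *Gstp2*. These ratios describe a single library and have no replicate. sg*Kmt2c* replicate 2 was the highest line for 5 members (*Gstm1*, *Gstm2*, *Gstt3*, *Gstz1* and *Ugt1a6a*), sg*Trp53* replicate 3 for 2 (*Gstm4* and *Gstm5*) and sg*Trp53* replicate 1 for *Sult1c2*.

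**Figure D2:**
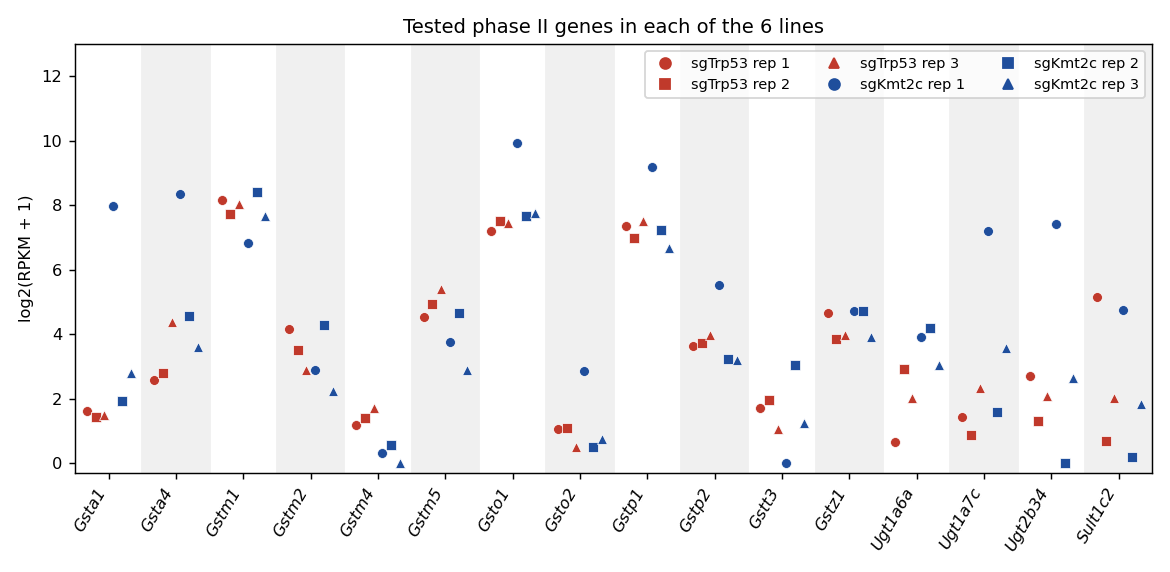
log2(RPKM + 1) of the 16 tested phase II genes (horizontal axis) in each line, with sgTrp53 lines in red, sgKmt2c lines in blue, and circles, squares and triangles for replicates 1, 2 and 3. The blue circle, sgKmt2c replicate 1, lies alone above the other 5 points for 8 genes, among them Gsta1 (252 RPKM against at most 5.88) and Ugt2b34 (169 against at most 5.48), and below the sgTrp53 lines for Gstm1.

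Alpha class transferases, which bind bilirubin and conjugate electrophiles such as lipid peroxidation products, differed widely between lines. *Gsta1* was listed at 2.06, 1.72 and 1.82 RPKM in sg*Trp53* cells, which came from 11, 8 and 11 reads. Its levels were 252, 2.79 and 5.88 RPKM in sg*Kmt2c* cells, which came from 1041, 9 and 22 reads. All 3 sg*Kmt2c* lines thus lay above all sg*Trp53* lines in RPKM. Replicate 2, with 9 reads, had fewer than the 11 of sg*Trp53* replicates 1 and 3. It lay above them only after scaling to its smaller depth (3680068 reads against 6088680 and 6878625). The log2 fold change was 2.71 (95% interval -0.83 to 6.26, adjusted p = 0.644, limma) and 0.83 without sg*Kmt2c* replicate 1 (adjusted p = 0.550, limma). *Gsta4*, whose enzyme acts on 4-hydroxynonenal and related aldehydes, was at 4.97, 5.89 and 19.9 RPKM in sg*Trp53* cells and at 326, 22.7 and 11.2 RPKM in sg*Kmt2c* cells. The genotypes overlapped here, since sg*Trp53* replicate 3 exceeded sg*Kmt2c* replicate 3. The difference was 2.26 on the log2 scale (95% interval -0.65 to 5.18, adjusted p = 0.639, limma), and 0.84 without sg*Kmt2c* replicate 1. *Gsta2* had no read in 5 libraries and 18 reads in sg*Kmt2c* replicate 1 (4.39 RPKM). *Gsta3* was at 1.91, 0.129 and 0.199 RPKM against 7.43, 0.186 and 0.161 RPKM, so replicate 1 was the highest of each genotype. In sg*Kmt2c* replicate 1, *Gsta1* and *Gsta4* made up 10.8% and 13.9% of all *Gst* RPKM, against at most 1.03% and 2.81% elsewhere.

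*Gsta1*, *Gsta2* and *Gsta4* lie together on chr9:78191966-78355788 (GRCm38, coordinates as deposited). Most 50-base stretches of the *Gsta1* transcript, 89.7%, also occur in another transcript, chiefly that of the predicted gene *Gm3776*, so its reads could belong in part to that copy. *Gsta4* shared none. *Gsta1* was the tested member with the largest ratio of sg*Kmt2c* replicate 1 to the highest of the other 5 lines. Its promoter is shown with the 250 bases before and the first 20 bases after its RefSeq start (GRCm38.p6, chr9:78230419-78230688, plus strand).
Gsta1: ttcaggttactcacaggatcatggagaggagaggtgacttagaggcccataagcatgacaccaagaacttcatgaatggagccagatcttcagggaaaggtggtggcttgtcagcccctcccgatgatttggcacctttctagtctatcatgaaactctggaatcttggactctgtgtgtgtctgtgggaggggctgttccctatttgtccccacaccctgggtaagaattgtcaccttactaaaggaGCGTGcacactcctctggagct
Capitals mark GCGTG, the core of the xenobiotic response element bound by the aryl hydrocarbon receptor with ARNT, whose first base lies at -2 from the start. The core of the antioxidant response element bound by NRF2 (TGAC, any 3 bases, GC) and the AP-1 site TGAGTCA were searched too, all on both strands and over the full 300 bases given by RefSeq, and have no match in this window. A match is a description of the letters and does not show binding.

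Omega class enzymes, which act as thioltransferases and reduce dehydroascorbate and arsenic compounds, were led by *Gsto1*. It was at 147, 180 and 173 RPKM in sg*Trp53* cells (mean 167 ± 17.8, SD, n = 3) and at 966, 204 and 214 RPKM in sg*Kmt2c* cells. The 3 sg*Kmt2c* lines were all above the sg*Trp53* lines, 1 of them far above and the others by a small margin. The difference between genotypes was 1.06 on the log2 scale (95% interval -0.36 to 2.48, adjusted p = 0.650, limma), and 0.33 (95% interval -0.10 to 0.76) without sg*Kmt2c* replicate 1. Its neighbour *Gsto2* was far less abundant, at 1.09, 1.11 and 0.430 RPKM against 6.28, 0.402 and 0.693 RPKM. Here the genotypes overlapped, with sg*Kmt2c* replicate 1 alone above the sg*Trp53* lines. The log2 fold change of *Gsto2* was 0.48 with all lines and -0.26 without that line.

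Pi class genes encode the transferase whose rat form is a common marker of preneoplastic liver. *Gstp1* was at 163, 127 and 182 RPKM in sg*Trp53* cells and at 578, 148 and 102 RPKM in sg*Kmt2c* cells. *Gstp2* was at 11.3, 12.2 and 14.9 RPKM against 45.5, 8.45 and 8.20 RPKM. Both had sg*Kmt2c* replicate 1 at the top, and for *Gstp2* the other sg*Kmt2c* lines were below every sg*Trp53* line. For *Gstp1* the log2 fold change was 0.40 (95% interval -1.08 to 1.88, adjusted p = 0.845, limma) and turned to -0.34 without sg*Kmt2c* replicate 1. That of *Gstp2* was 0.22 (95% interval -1.29 to 1.73) and turned to -0.56 (95% interval -1.10 to -0.01, adjusted p = 0.537, limma). The genes lie side by side on chr19:4035407-4042236, and 67.5% of the 50-base stretches of the *Gstp1* transcript are also in *Gstp2*, so the split of reads between them is uncertain. Their promoters are shown because both genes had more than 3 times the level of any other line in sg*Kmt2c* replicate 1 (both on the minus strand, GRCm38.p6, chr19:4037893-4038162 and chr19:4042202-4042471).
Gstp1: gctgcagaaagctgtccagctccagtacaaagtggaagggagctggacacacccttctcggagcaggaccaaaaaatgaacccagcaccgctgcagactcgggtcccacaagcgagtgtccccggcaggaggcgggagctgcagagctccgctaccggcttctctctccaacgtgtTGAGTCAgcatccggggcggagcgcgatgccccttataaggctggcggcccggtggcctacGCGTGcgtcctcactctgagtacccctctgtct
Gstp2: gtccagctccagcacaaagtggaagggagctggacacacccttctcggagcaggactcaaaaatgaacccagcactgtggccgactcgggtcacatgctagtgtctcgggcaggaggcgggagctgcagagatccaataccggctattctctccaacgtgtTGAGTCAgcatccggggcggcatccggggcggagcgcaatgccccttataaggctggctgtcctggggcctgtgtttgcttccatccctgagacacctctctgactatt
In both windows the capitals TGAGTCA mark an AP-1 site, at -74 in *Gstp1* and at -89 in *Gstp2*, and the capitals GCGTG in *Gstp1* mark a xenobiotic response element core at -13. After alignment 222 of 286 columns were identical (77.6%). The AP-1 motif was added to the search after these sequences had been seen.

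Mu class genes, which conjugate epoxides and other electrophiles, had their lowest sum, 134 RPKM, in sg*Kmt2c* replicate 1 and 211 to 387 RPKM in the other lines. *Gstm1* was the most abundant *Gst* gene of 4 lines, at 287, 213 and 263 RPKM in sg*Trp53* cells and at 113, 342 and 201 RPKM in sg*Kmt2c* cells. It made up 35.0 to 42.4% of all *Gst* RPKM in 5 lines and 4.82% in sg*Kmt2c* replicate 1. The log2 fold change of *Gstm1* was -0.35 (95% interval -1.30 to 0.61) and 0.05 without that line. *Gstm2* was at 17.0, 10.4 and 6.41 RPKM against 6.38, 18.6 and 3.74 RPKM, with overlap and a log2 fold change of -0.38 (95% interval -1.78 to 1.01). *Gstm4* had 13, 15 and 27 reads in sg*Trp53* cells (1.25, 1.65 and 2.30 RPKM) and 2, 3 and 0 reads in sg*Kmt2c* cells (0.249, 0.477 and 0 RPKM). All sg*Kmt2c* lines were below all sg*Trp53* lines. Since only the sg*Trp53* lines brought it past the filter, this order was fixed by the filter and the log2 fold change of -1.14 is a description, which the added pseudocount of 1 makes smaller than the reads give. *Gstm5* was at 22.0, 29.8 and 41.0 RPKM against 12.6, 24.4 and 6.44 RPKM. Only sg*Kmt2c* replicate 2 reached the range of the sg*Trp53* lines. Its mean difference was -1.18 on the log2 scale (95% interval -2.31 to -0.05, unadjusted p = 0.0433, adjusted p = 0.575, limma). *Gstm4* and *Gstm5* kept these values almost unchanged without sg*Kmt2c* replicate 1, at -1.15 and -1.17. *Gstm7* reached 1.77 RPKM in sg*Trp53* replicate 2 and 0 to 0.771 RPKM elsewhere, and *Gstm3* and *Gstm6* stayed under 1 RPKM in every line.

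The 7 mu class genes form a cluster on chr3:107895821-108044894. No 50-base stretch of *Gstm4* or *Gstm5* occurs in another transcript, while 12.7% of those of *Gstm1* do. *Gstm5* is the tested member with an antioxidant response element core in its promoter, and this window is shown for that reason (plus strand, GRCm38.p6, chr3:107895604-107895873).
Gstm5: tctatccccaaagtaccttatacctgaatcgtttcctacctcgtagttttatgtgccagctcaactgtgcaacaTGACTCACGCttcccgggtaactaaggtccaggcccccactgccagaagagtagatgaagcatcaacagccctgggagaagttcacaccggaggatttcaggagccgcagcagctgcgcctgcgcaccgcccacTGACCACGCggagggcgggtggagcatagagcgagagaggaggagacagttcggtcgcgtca
The first run of capitals holds an AP-1 site (at -176) that overlaps a xenobiotic response element core (at -171), both read on the minus strand. The second holds the antioxidant response element core (at -42), which overlaps a further xenobiotic response element core on the minus strand (at -38). RefSeq promoters were found for 47 of the 55 members (57 windows, with none for *Gsta4*). The antioxidant response element core was in 5.26% of these windows (*Gsta3*, *Gstm5* and *Gstm7*) and in 12.4% of all 32851 mouse promoter windows. The xenobiotic response element core was in 21.1% of the members' windows and 32.4% of all. For the AP-1 site the shares were 10.5% and 5.2%. That motif was added after the *Gstp1* and *Gstp2* windows had been seen, so its share among members was partly fixed by the choice.

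Theta, zeta and kappa class genes were low or even. *Gstz1*, the maleylacetoacetate isomerase of tyrosine breakdown, was at 24.2, 13.4 and 14.8 RPKM against 25.1, 25.6 and 13.9 RPKM. Its log2 fold change of 0.28 had the 95% interval -0.52 to 1.08. *Gstt3* was at 2.27, 2.90 and 1.08 RPKM against 0, 7.21 and 1.37 RPKM, so that the lowest and the highest values were both in sg*Kmt2c* lines (log2 fold change -0.15, 95% interval -1.96 to 1.66). *Gstt1* was at 2.21, 3.44 and 0.560 RPKM against 0.409, 0.523 and 0 RPKM, and *Gstt2* had reads only in sg*Trp53* replicates 1 and 3 (1.08 and 0.318 RPKM). For *Gstt1* all sg*Kmt2c* lines were below all sg*Trp53* lines, but the gene was too low to be tested. *Gstk1*, the mitochondrial and peroxisomal enzyme, was at 0.882, 2.02 and 0.780 RPKM against 0.913, 1.17 and 0 RPKM.

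**Figure D3:**
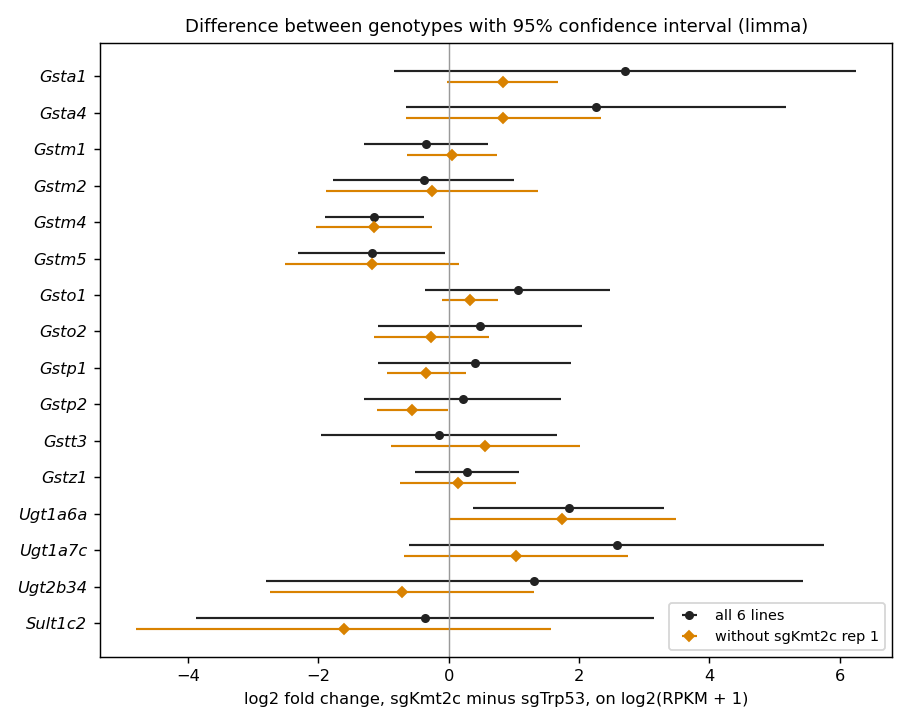
log2 fold change (sgKmt2c minus sgTrp53, on the log2(RPKM + 1) scale) of the 16 tested phase II genes with 95% confidence intervals from limma, with all 6 lines (black circles) and without sgKmt2c replicate 1 (orange diamonds). The intervals exclude 0 with all lines only for Gstm5, Ugt1a6a and Gstm4 (which passed the filter through the sgTrp53 lines alone), and Gsta1 falls from 2.71 to 0.83 when that line is left out.

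Among the UDP-glucuronosyltransferases, the 8 *Ugt1a* genes share their last exons and differ in the first, and the cluster lies on chr1:88055388-88220002. *Ugt1a6a*, whose enzyme conjugates small planar phenols, was at 0.571, 6.63 and 3.10 RPKM in sg*Trp53* cells and at 14.0, 17.1 and 7.33 RPKM in sg*Kmt2c* cells. The sg*Kmt2c* lines were all above the sg*Trp53* lines, and here replicate 2 was the highest. The log2 fold change of 1.84 (95% interval 0.38 to 3.31) did not pass the test across genes (unadjusted p = 0.0210, adjusted p = 0.499, limma) and was 1.75 without sg*Kmt2c* replicate 1. *Ugt1a7c*, a further form of the cluster, was at 1.68, 0.827 and 4.04 RPKM against 146, 1.99 and 11.0 RPKM. sg*Kmt2c* replicate 2 fell within the sg*Trp53* range, and the other sg*Kmt2c* lines were above it. On the log2 scale the genotypes differed by 2.58 (95% interval -0.61 to 5.77, adjusted p = 0.633, limma) and 1.04 without sg*Kmt2c* replicate 1. *Ugt1a6b*, too low to be tested, was at 0, 0.163 and 0 RPKM against 0.461, 0.824 and 1.32 RPKM, with all sg*Kmt2c* lines above. These values came from 0, 2 and 0 reads against 5, 7 and 13 reads. Of its 50-base stretches 91% are also in *Ugt1a6a*, so the 2 genes are not separate observations. *Ugt1a1*, the bilirubin-conjugating form, had 11, 3 and 4 reads against 3, 0 and 6 reads and stayed under 1 RPKM in all lines. Because 85.4% of the 50-base stretches of *Ugt1a6a* and 70.2% of those of *Ugt1a7c* are shared with other transcripts, the division of reads among the *Ugt1a* genes is uncertain. Summed over the 8 genes, the levels were 3.06, 7.96 and 7.40 RPKM in sg*Trp53* cells and 162, 19.9 and 20.4 RPKM in sg*Kmt2c* cells, with no overlap.

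*Ugt2* genes, whose enzymes conjugate steroids, bile acids and many drugs, were far higher in 1 line than in the others. *Ugt2b34* was at 5.48, 1.48 and 3.23 RPKM in sg*Trp53* cells (102, 24 and 68 reads) and at 169, 0 and 5.21 RPKM in sg*Kmt2c* cells (2426, 0 and 68 reads). The sg*Kmt2c* lines thus held the highest and the lowest value. Its log2 fold change was 1.32 (95% interval -2.80 to 5.44, adjusted p = 0.815, limma) and turned to -0.71 without sg*Kmt2c* replicate 1. *Ugt2b36* was at 0.608, 0.0996 and 0.538 RPKM against 16.4, 0 and 0.248 RPKM, and *Ugt2b5* at 0.441, 0.202 and 0.469 RPKM against 10.6, 0 and 0.126 RPKM. *Ugt2b35* had reads in sg*Kmt2c* replicate 1 alone (41 reads, 2.59 RPKM). All 3 followed *Ugt2b34* in having their highest level in sg*Kmt2c* replicate 1. None of the 7 *Ugt2* genes, which lie on chr5:86889767-87337195, had a read in sg*Kmt2c* replicate 2. At the depth of these libraries a count of 0 leaves room for up to 3 reads per gene. *Ugt3a2* and *Ugt8a* stayed under 1 RPKM, and *Ugt1a10* and *Ugt3a1* had no read.

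Sulfotransferase RNA was scarce. *Sult1c2* was the single tested member, at 34.3, 0.611 and 3.07 RPKM in sg*Trp53* cells and at 25.8, 0.147 and 2.53 RPKM in sg*Kmt2c* cells. Its range within each genotype was far wider than the difference between them (log2 fold change -0.36, 95% interval -3.87 to 3.15). The value was -1.61 without sg*Kmt2c* replicate 1 and turned to 0.90 without sg*Trp53* replicate 1 and to 0.66 without sg*Kmt2c* replicate 2. *Sult2b1*, which sulfates cholesterol and hydroxysteroids, had 1, 0 and 2 reads in sg*Trp53* cells and 235, 0 and 1 reads in sg*Kmt2c* cells. Its 41.8 RPKM in sg*Kmt2c* replicate 1 was the largest value of any member left untested. *Sult1a1*, the main phenol sulfotransferase of liver, reached 1.09 RPKM in sg*Kmt2c* replicate 3 and 0 to 0.636 RPKM elsewhere. *Sult1d1* was at 1.96, 0 and 0.120 RPKM against 0.877, 0 and 0.290 RPKM. The 7 *Sult2a* genes, typical hepatocyte hydroxysteroid sulfotransferases, had no read in any library, nor had *Sult3a1* and *Sult5a1*. In all, 11 members had no read, 15 had between 1 and 27 reads over the 6 libraries and stayed under 1 RPKM, and 13 reached 1 RPKM in some line without passing the filter.

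**Figure D4:**
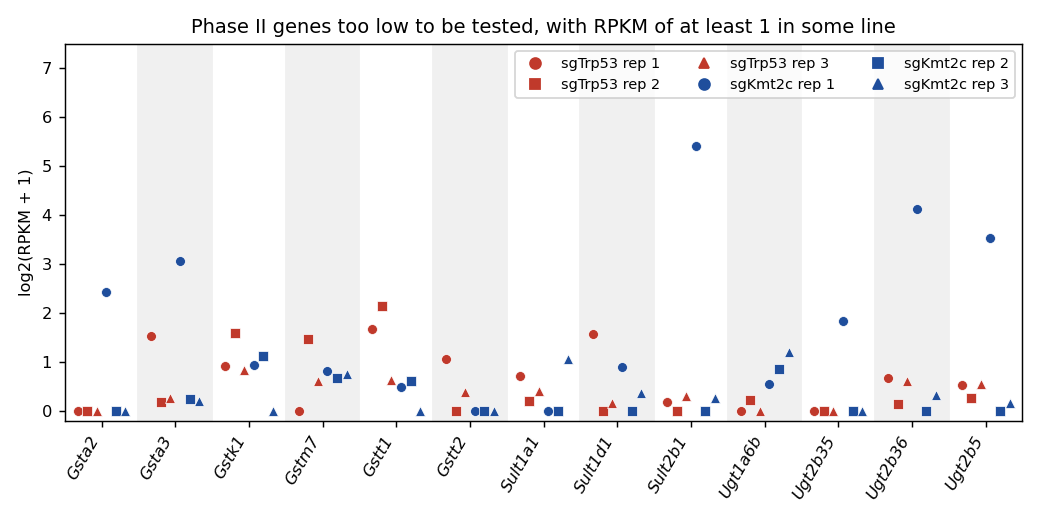
log2(RPKM + 1) of the 13 members that reached 1 RPKM in some line but were too low to be tested, in the same colors and symbols (sgTrp53 red, sgKmt2c blue, circles, squares and triangles for replicates 1, 2 and 3). sgKmt2c replicate 1 stands above the other 5 lines for Gsta2 (4.39), Gsta3 (7.43), Sult2b1 (41.8), Ugt2b36 (16.4) and Ugt2b5 (10.6).

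Genes that supply the cosubstrates, export the conjugates or regulate these enzymes were read off the same test. None of the 43 tested among 57 listed genes passed an adjusted p-value of 0.05 (limma, beside 0.129% of all genes). At an unadjusted p-value under 0.05, 6 were higher and 2 lower, beside 3.25% and 5.34% of all genes tested, and 23 of 43 were highest in sg*Kmt2c* replicate 1, beside 23.6%. In glutathione supply (0 of 9 called), *Gclc*, the catalytic subunit of the rate-limiting enzyme of glutathione synthesis, was at 49.7, 37.5 and 32.4 RPKM against 289, 126 and 125 RPKM. All sg*Kmt2c* lines were above all sg*Trp53* lines. Its log2 fold change of 2.05 (95% interval 1.16 to 2.94, adjusted p = 0.202, limma) was 1.65 without sg*Kmt2c* replicate 1 (adjusted p = 0.106, limma). Among the microsomal and prostaglandin transferases (0 of 4 called), the log2 fold change was 1.83 for *Mgst3* (limma adjusted p = 0.411) and 1.63 for *Mgst2* (limma adjusted p = 0.572), with all sg*Kmt2c* lines above all sg*Trp53* lines in both. Without sg*Kmt2c* replicate 1 the values were 1.44 for *Mgst3* and 0.87 for *Mgst2*.

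Other conjugation enzymes (0 of 5 called) included the gene with the largest difference of these lists. *Nnmt*, which methylates nicotinamide, was at 23.7, 19.5 and 22.7 RPKM against 0.203, 7.54 and 0.897 RPKM (log2 fold change -3.09, 95% interval -4.75 to -1.42, adjusted p = 0.328, limma). All its sg*Kmt2c* values were below all sg*Trp53* values, as for *Tpmt*, *Papss1* and *Arnt* in these lists. For *Gss*, *Nat2* and *Abcc1* they were all above. Over all genes tested the genotypes did not overlap for 16.2% (5.72% above and 10.4% below). For the acetyltransferase *Nat2* the log2 fold change was 0.94 (limma adjusted p = 0.439). UDP-glucuronic acid supply (0 of 4 called) was represented by *Ugp2* with 0.63 (95% interval -0.76 to 2.01). Without sg*Kmt2c* replicate 2, its highest line at 169 RPKM, the value was 0.0052. PAPS supply (0 of 6 called) was represented by *Papss1* with -0.50 (95% interval -1.04 to 0.04). Among exporters (0 of 7 called), *Abcb1a* was at 0.262, 0.0752 and 0.697 RPKM against 8.32, 1.03 and 6.55 RPKM. It entered the test through the sg*Kmt2c* lines alone, so its log2 fold change of 1.99 is a description, and without it 5 of the other 42 genes were higher at an unadjusted p-value under 0.05 (limma).

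Among regulators (0 of 8 called), *Nfe2l2*, which encodes NRF2, was at 51.5, 60.1 and 59.1 RPKM against 173, 70.0 and 87.5 RPKM. Its log2 fold change was 0.83 (95% interval 0.02 to 1.65, adjusted p = 0.579, limma), with no overlap between the genotypes, and 0.46 without sg*Kmt2c* replicate 1. *Arnt*, the partner of the aryl hydrocarbon receptor, was at 35.0, 79.6 and 42.2 RPKM against 23.9, 26.6 and 27.0 RPKM (log2 fold change -0.90, adjusted p = 0.528, limma, and -0.56 without sg*Trp53* replicate 2). Of the 8 tested regulators, 2 were highest in sg*Kmt2c* replicate 1, beside 23.6% of all genes tested. Some genes of these lists, picked after their values were seen, had that line at the top. The hepatocyte nuclear factor *Hnf4a* was at 24.7, 3.49 and 15.8 RPKM against 1186, 0.629 and 170 RPKM. These values came from 65, 8 and 47 reads against 2409, 1 and 313 reads. The xenobiotic receptor *Nr1i2* was at 0.385, 0.221 and 0.284 RPKM against 19.2, 0 and 0.183 RPKM. The conjugate exporter *Abcc2* was at 0.572, 0.0702 and 0.524 RPKM against 114, 0 and 0.874 RPKM. In sg*Kmt2c* replicate 1 it had 4330 reads, more than the 2409 of *Hnf4a*, at a far lower RPKM. Levels of different genes thus depend on the deposited transcript lengths. *Nr1i2* and *Abcc2* were under 1 RPKM in every other line, while *Hnf4a* was next highest in sg*Kmt2c* replicate 3. The cystine transporter *Slc7a11* was at 8.07, 6.53 and 4.50 RPKM against 167, 1.68 and 13.5 RPKM. *Gclm*, the other subunit of that enzyme of glutathione synthesis, was nearly level at 33.8 to 49.7 RPKM, as was *Keap1*, the NRF2 inhibitor, at 16.2 to 21.3 RPKM. The part of these regulators in the members' levels was not tested.

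**Figure D5:**
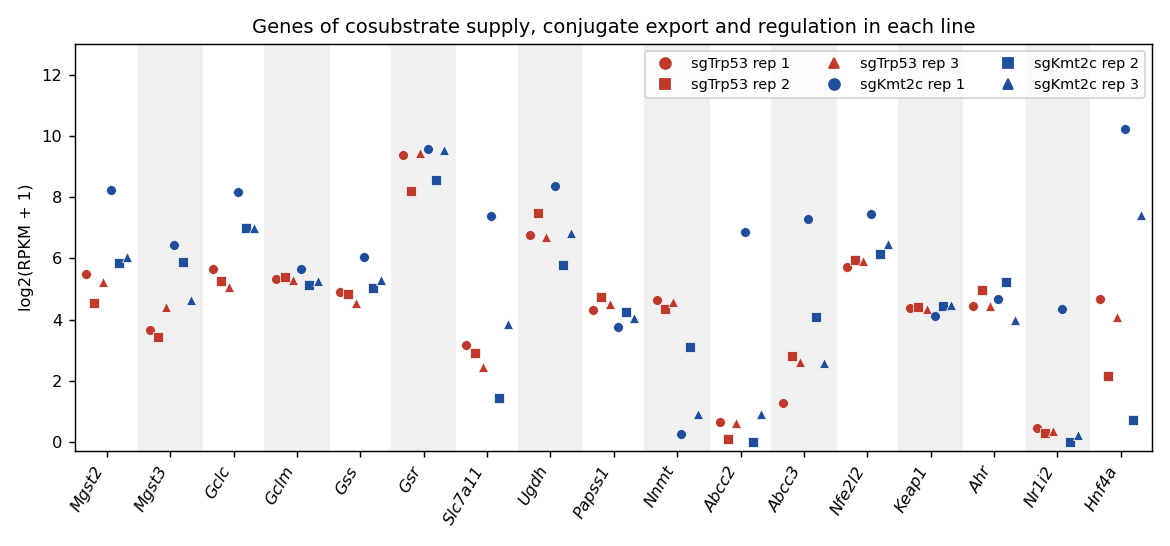
log2(RPKM + 1) of 17 genes of glutathione supply, cosubstrate supply, conjugate export and regulation in each line, in the same colors and symbols as above. Gclc, Gss, Mgst2, Mgst3 and Nfe2l2 have all 3 blue points above the red ones, and Nnmt and Papss1 have all 3 below them. Hnf4a (1186 RPKM from 2409 reads), Abcc2 (114 RPKM from 4330 reads) and Slc7a11 (167 RPKM) have their highest point in sgKmt2c replicate 1.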

How the data were processed

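RNA of 6 mouse liver tumor cell lines, 3 of each genotype by the labels, was prepared with an Illumina TruSeq RNA kit and run in the same lanes of 1 flow cell. The authors trimmed reads with Trimmomatic, mapped them with STAR to GRCm38 and assigned them to genes with HTSeq. They deposited the result as RPKM, and the counting mode and its use of strand are not given in the sources used here. Of 21065 entries of the deposited RPKM table, 209 had no values, and 6 columns of other samples were not used. The deposited results of the authors' own DESeq2 1.8.2 comparison (mean counts, fold changes and p-values) were not used. RPKM times transcript length gave whole reads for 100% of values (within 0.001 of a read), which set the depths. The p-values set the difference between genotype means against the spread between lines, moderated over all genes tested. They rest on these 6 lines only.

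Genotypes were compared on log2(RPKM + 1) with limma 3.58.1 under R 4.3.3 (lmFit, eBayes with trend). Genes entered if 3 or more of the 6 libraries reached 1 RPKM, with Benjamini-Hochberg adjustment over all genes tested and a call at an adjusted p-value under 0.05. The members, lists and markers were chosen with earlier results of these data known. All tested members are named, with untested members that reached 1 RPKM. Of each list of related genes, up to 3 tested genes with an unadjusted p-value under 0.05 are named, or else the gene with the largest fold change. The script was checked on simulated data. Alternatives changed the pseudocount, filter, scaling, moderation, threshold, test, replicate block and the lines included. Shared 50-base stretches were counted in GENCODE transcripts of an older build. Plots were drawn with matplotlib 3.10.9.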

Additional observations from a re-analysis of the deposited data

How the results depend on the processing

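No member and no gene of the related lists passed an adjusted p-value of 0.05 under any of the 17 alternatives. Without the filter on low values, 5 of 44 members had an unadjusted p-value under 0.05 (limma), beside 1405 of 19183 genes. In the other fits 1 to 4 of 16 members did, beside 563 to 1477 of 11617 genes. Over all genes, 6 were called higher and 9 lower in the reported test (997 at an unadjusted p-value under 0.05). The lower count was 2 with a pseudocount of 0.1, 6 with a pseudocount of 0.5 or TPM scaling, 13 with moderation without a trend, 0 without the filter on low values (5 higher) and 0 with limma voom on recovered reads (4 higher). At an adjusted p-value under 0.1, 14 were higher and 19 lower. With the replicate number as a block, 0 were higher and 0 lower (1085 unadjusted, limma). Same-numbered lines of the genotypes correlated at 0.192, 0.399 and 0.0316, so the numbers were not taken as pairs. Counting sgKmt2c replicates 2 and 3 as 1 sample gave 0 and 0 (1031 unadjusted). Leaving out sgKmt2c replicate 1 gave 5 higher and 3 lower, and leaving out any other single line gave 0 higher and 0 lower. The cause of these shifts was not tested. The members' median log2 fold change ranged from -0.10, without sgKmt2c replicate 1, to 0.70, without sgKmt2c replicate 3. Without sgKmt2c replicate 1 the sign also turned for Gstm1, Ugt2b34, Gsto2, Gstp1, Gstp2 and Gstt3, none of them called. Sult1c2 turned to 0.90 without sgTrp53 replicate 1, 0.66 without sgKmt2c replicate 2 and 0.37 with sgKmt2c replicates 2 and 3 as 1 sample, Gstm2 to 0.07 without sgKmt2c replicate 3, and Gstt3 to 0.13 with quantile normalization and 0.04 without sgTrp53 replicate 2. Genes of few reads, such as Gstm4, are limited by a depth of 3680068 to 6878625 reads per library.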
